A study of Mus musculus with 8 samples.

Results

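A set of 47 interferon-stimulated genes was followed across the 4 treatment groups of a mouse macrophage experiment. They were taken by name and grouped by role into 6 interferon regulators and STATs, 10 ubiquitin-like, TRIM and PARP genes, 11 RNA sensors and RNA-acting enzymes, 5 IRG and Mx GTPases, 5 immunoproteasome and peptide loading genes, and 10 membrane, secreted, nuclear and other effectors. Of them, 45 had a probe set with only their own symbol, among 18193 such genes on the array, and 37 passed a filter on low signal, among 8908 genes tested. The cells were RAW 264.7, an established mouse macrophage line, and each group had 2 Affymetrix arrays of total RNA, 8 arrays in all. Control cells received the control treatment, M cells received menthol for 1 h, LPS cells received lipopolysaccharide at 100 ng/ml for 6 h, and LPS+M cells received menthol for 1 h before LPS at 100 ng/ml for 6 h. The labels give no menthol dose and no harvest time for control and M, so a difference in time and the effect of LPS cannot be told apart wherever arrays with LPS are set against arrays without it. Between control and M, a difference in harvest time and the effect of menthol cannot be told apart either. The same limit holds for the interaction of menthol and LPS, which uses both groups. The arrays of a group are called biological replicates without saying whether they came from separate cultures, so every p-value reflects the spread of these arrays alone, and that spread may be technical.

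Macrophages sense LPS, a cell wall component of Gram-negative bacteria, through the receptor TLR4. One branch of TLR4 signaling runs through the adaptor TRIF and the kinases TBK1 and IKKε to the transcription factor IRF3, which switches on interferon beta. Secreted interferon then acts on the receptor made of IFNAR1 and IFNAR2, whose kinases JAK1 and TYK2 activate transcription factors of the STAT family. STAT2 and IRF9 are parts of the complex ISGF3, which binds the interferon-stimulated response element (ISRE) in the promoters of interferon-stimulated genes, while the gamma-activated site (GAS) is an element of genes that respond to interferon gamma. The products of these genes detect, cut or trap viral RNA, guard against intracellular microbes, cut antigens into peptides for display, and restrain the interferon receptor itself.

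The sequences around the ISRE core are shown because this element is the one by which many of these genes are known to be switched on. Promoters of 37 of the 47 genes were matched by symbol to RefSeq sequence of the mouse build GRCm38.p6, and the 250 bases before each start site were searched. Usp18, Parp9, Parp14, Dhx58, Zbp1, Oas2, Mx1, Mx2, Rtp4 and Tor3a had no entry in the table. The ISRE core was searched as GAAANNGAAA on one strand and TTTCNNTTTC on the other. A gene was counted if any of its promoters held the core. The ISRE core stood in 7 of the 37 genes (18.9%) and in 936 of all 27025 genes with a promoter sequence (3.46%). The GAS core was searched as TTCNNNGAA, which reads the same on both strands, and it stood in 6 of the 37 (16.2%) and in 2197 of all these genes (8.13%). From each role, the gene with an ISRE core and the largest change in LPS+M compared to LPS is printed 5′ to 3′ along the gene's strand, with the core in capitals and 20 bases on either side. No stretch is given for the immunoproteasome and peptide loading genes, as 0 of these 5 genes held the core.
Stat2, chr10:128270256-128270305, + strand: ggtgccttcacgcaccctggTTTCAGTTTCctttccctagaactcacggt
Trim30a, chr7:104465200-104465249, - strand: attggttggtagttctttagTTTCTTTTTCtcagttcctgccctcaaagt
Oas3, chr5:120777705-120777754, - strand: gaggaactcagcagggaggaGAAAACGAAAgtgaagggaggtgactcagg
Igtp, chr11:58199502-58199551, + strand: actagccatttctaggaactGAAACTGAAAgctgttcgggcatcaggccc
Bst2, chr8:71537567-71537616, - strand: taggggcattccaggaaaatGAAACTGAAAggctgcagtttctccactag
The cores started 222 bases before the start site in Stat2, 36 in Trim30a, 75 in Oas3, 34 in Igtp and 124 in Bst2. The other genes with an ISRE core were Isg15, which held 3 overlapping cores, and Irgm1, which held 2, and Bst2 also held a second, overlapping core, of which the one nearer to the start site is in capitals. A GAS core stood in Irf1, Eif2ak2, Isg20, Igtp, Psmb8 and Bst2, and in Bst2 it overlapped the ISRE core farther from the start site, not the one in capitals. Of the 8 genes downregulated in LPS+M compared to LPS, 6 had a promoter in the table, and 2 of them, Trim30a and Igtp, held the ISRE core. These matches describe letters in the window and show no binding.

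**Figure D1:**
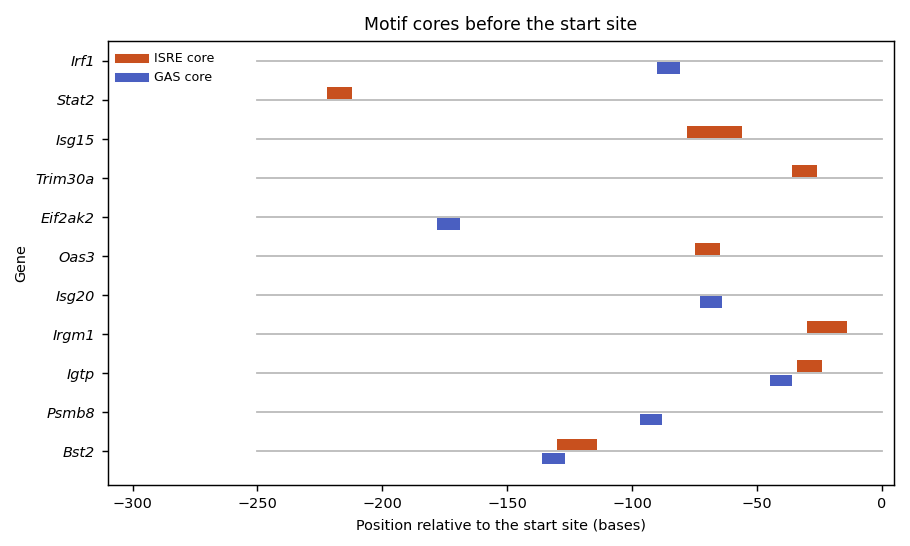
Position of the ISRE core (orange) and the GAS core (blue) in the 250 bases before the start site, in bases relative to the start site, for each of the 11 genes with either core. The cores of Igtp, Irgm1 and Trim30a lie nearest to the start site, within 45 bases of it, and that of Stat2 lies farthest, at 222.

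Array medians were 2.986 to 3.039 in log2 signal, and the arrays of a group correlated at 0.9988 to 0.9994 over the probe sets, which are not replicates. All 10 macrophage markers, among them Cd68, Adgre1 and Csf1r, lay above the filter on every array, at 9.62 to 15.6. All 11 measured markers of fibroblasts, epithelium, T cells and B cells lay under it, at 1.68 to 4.04. Calls come from limma on all arrays and need both an adjusted p under 0.05 (Benjamini-Hochberg, over all 8908 genes) and a fold change of at least 1.5, which is 0.585 on the log2 scale. Each ± gives the standard error of a log2 fold change, with n = 2 arrays per group, and several comparisons share arrays. In RNA from whole cultures, fewer responding cells and less RNA per cell cannot be told apart.

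A minority of these genes were called higher with LPS, and a minority were called lower when menthol came before LPS, with 5 genes in both sets. Both comparisons use the same LPS arrays, and the overlap was not counted over all tested genes. Called or not, 28 of 37 lay above 0 with LPS, against 3825 of all 8908 tested genes. In LPS+M compared to LPS, 29 of 37 lay below 0, against 4013 of all 8908. In LPS compared to control, 8 of 37 were upregulated, against 3.17% of all tested genes, and 0 were downregulated, against 2.96%. In LPS+M compared to LPS, 8 of 37 were downregulated, against 2.49% of all tested genes, and 0 were upregulated, against 4.22%. The median log2 fold change was 0.17 in the first and -0.19 in the second, while over all tested genes it was -0.03 and 0.03. Usp18, Oasl1, Igtp, Rtp4 and Xaf1 were higher with LPS and lower when menthol came first. Parp14, Ifih1 and Tor3a were higher with LPS and not called in LPS+M compared to LPS, whereas Trim30a, Ifi47 and Samd9l were lower in LPS+M compared to LPS and not called in LPS compared to control. At an unadjusted p under 0.05, limma gave 19 of 37 higher (14.0% of all tested genes) and 0 lower (20.7%) with LPS. In the same way it gave 4 higher (24.1%) and 18 lower (16.7%) in LPS+M compared to LPS.

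The other comparisons moved fewer genes or shared the LPS arrays. In M relative to control, 1 of 37 was downregulated, against 1.54% of all tested genes, and 0 were upregulated, against 3.01%. At an unadjusted p under 0.05, 4 were higher, against 20.7% of all tested genes, and 8 were lower, against 14.1%. In LPS relative to M, 8 were upregulated, against 4.59%, and 0 were downregulated, against 6.70%, with 21 higher (17.9% of all tested genes) and 2 lower (30.1%) at an unadjusted p under 0.05. In LPS+M relative to M, which gives the LPS response in cells that had received menthol, 2 were upregulated, against 2.39%, and 0 were downregulated, against 1.77%, with 5 higher (12.2% of all) and 2 lower (16.8%) at an unadjusted p under 0.05. In LPS+M compared to control, 3 were upregulated, against 5.53%, and 2 were downregulated, against 4.30%, with 6 higher (23.0% of all) and 11 lower (21.5%) at an unadjusted p under 0.05. Across all comparisons 11 genes were called at least 1 time and 26 were called in none. This count was not made over all tested genes, so it has no share to be read against.

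**Figure D2:**
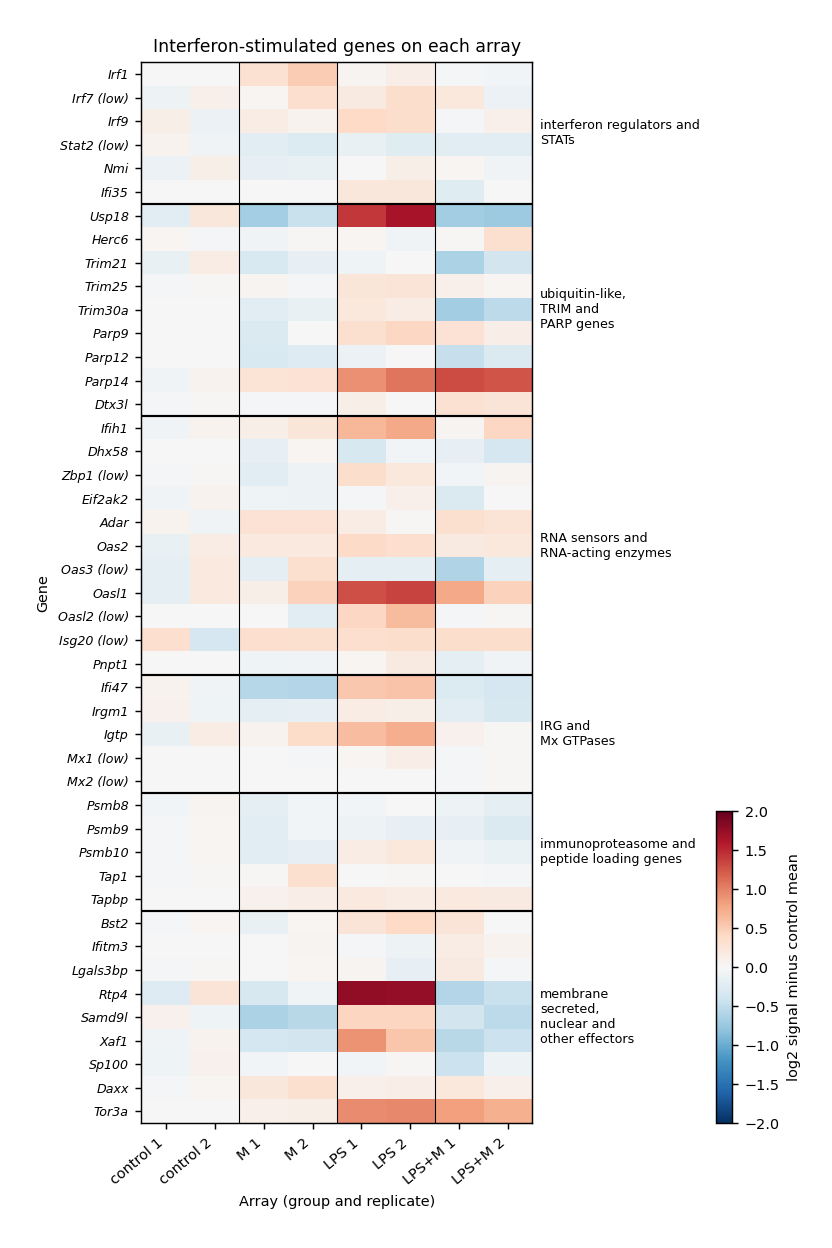
Log2 signal of each of the 45 measured genes on each of the 8 arrays, as the difference from that gene's mean over the control arrays (red higher, blue lower), in the 6 role groups, with "low" for the 8 genes under the filter. Usp18 and Rtp4 are deep red on the LPS arrays only, Parp14 and Tor3a are red on the LPS and the LPS+M arrays, and the immunoproteasome genes are pale throughout.

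Among the interferon regulators and STATs, no gene was called in any comparison. Irf9, the DNA-binding part of ISGF3, had log2 signals of 7.13 and 6.91 in control, 7.17 and 7.08 in M, 7.41 and 7.37 in LPS, and 7.0 and 7.12 in LPS+M. Both LPS arrays lay above the other arrays, and the other groups overlapped. Its log2 fold change was 0.38 ± 0.09 in LPS compared to control (limma adjusted p = 0.0195) and -0.33 ± 0.09 for LPS+M against LPS (adjusted p = 0.0261), both under the 1.5-fold minimum. Irf1, a transcription factor induced early by interferon gamma, had 0.41 ± 0.08 in M relative to control (adjusted p = 0.0109), and its signal was 7.85 and 8.07 on the M arrays and 7.50 to 7.69 on the others. Ifi35 and Nmi, partner proteins of the interferon response, had -0.36 ± 0.08 and -0.09 ± 0.09 in LPS+M compared to LPS. Irf7 and Stat2 lay under the filter at means of 4.80 and 2.91. In a fit without the filter Irf7, the factor that amplifies type I interferon, had 0.27 ± 0.16 with LPS and -0.22 ± 0.16 in LPS+M compared to LPS, and Stat2, which carries the printed ISRE core, had -0.19 ± 0.06 and -0.02 ± 0.06. At an unadjusted p under 0.05, limma gave 2 of the 4 tested genes higher with LPS (14.0% of all genes) and 2 lower in LPS+M compared to LPS (16.7%).

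Of the 9 tested ubiquitin-like, TRIM and PARP genes, 2 were upregulated with LPS, against 3.17% of all tested genes. In LPS+M compared to LPS, 2 were downregulated, against 2.49%. No comparison called the other 6 genes, a count that was not made over all tested genes. At an unadjusted p under 0.05, limma gave 5 higher (14.0% of all tested genes) and 0 lower (20.7%) with LPS. In LPS+M compared to LPS it gave 2 higher (24.1%) and 5 lower (16.7%). Usp18, which removes ISG15 from proteins and restrains signaling at the interferon receptor, had log2 signals of 6.89 and 7.34 in control, 6.44 and 6.68 in M, 8.52 and 8.77 in LPS, and 6.43 and 6.39 in LPS+M. The LPS arrays stood alone at the top, and the LPS+M arrays lay below both control arrays and just under the lower M array. It rose by 1.53 ± 0.15 with LPS (adjusted p = 0.000438) and by 2.09 ± 0.15 in LPS relative to M (adjusted p = 5.33e-05). It fell by 2.24 ± 0.15 in LPS+M compared to LPS (adjusted p = 0.000124) and by 0.71 ± 0.15 in LPS+M compared to control (adjusted p = 0.00945), the latter not called without the second control array, at -0.48. In M relative to control it had -0.56 ± 0.15 (adjusted p = 0.0382), just under the fold minimum, and -0.79, called, without the first control array.

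Parp14, an ADP-ribosyltransferase, had 8.37 and 8.49 in control, 8.71 and 8.72 in M, 9.35 and 9.50 in LPS, and 9.74 and 9.68 in LPS+M. The groups did not overlap, and the LPS+M arrays were the highest, unlike for Usp18. It rose by 1.00 ± 0.08 with LPS (adjusted p = 0.000106), by 1.00 ± 0.08 in LPS+M relative to M (adjusted p = 0.000158), by 0.71 ± 0.08 in LPS relative to M (adjusted p = 0.000343) and by 1.28 ± 0.08 in LPS+M compared to control (adjusted p = 2.03e-05). Its log2 fold change in LPS+M compared to LPS was 0.29 ± 0.08 (adjusted p = 0.0276), under the fold minimum. The second Parp14 probe set had a mean of 3.01 and a log2 fold change of 0.0024 with LPS, and the mean of both gave 0.50 for LPS against control, 0.50 for LPS+M relative to M and 0.36 for LPS relative to M, none called. For LPS+M against control the mean of both gave 0.64, which was called. The second probe set lay under the filter and hardly changed, so averaging shrinks any change and cannot test the first probe set. Trim30a, a TRIM protein that restrains NF-κB signaling in mouse macrophages, had 10.19 and 10.21 in control, 9.97 and 10.05 in M, 10.40 and 10.34 in LPS, and 9.49 and 9.67 in LPS+M. Its LPS+M arrays lay below all others, and its groups did not overlap. It fell by 0.79 ± 0.07 in LPS+M compared to LPS (adjusted p = 0.000407), and its second probe set had -0.71. Compared to control, LPS+M cells also had less of it: it fell by 0.62 ± 0.07 (adjusted p = 0.000644), with -0.53, not called, without the first LPS+M array. With LPS alone Trim30a had 0.17 ± 0.07 (adjusted p = 0.143). Trim21, an antibody receptor in the cytosol, had -0.46 ± 0.12 in LPS+M compared to LPS (-0.60, called, without the second LPS+M array), and Trim25, the ligase that activates RIG-I, had 0.25 ± 0.06 with LPS. Parp9 and its partner Dtx3l had 0.37 ± 0.11 and 0.06 ± 0.06 with LPS, and -0.15 ± 0.11 and 0.22 ± 0.06 in LPS+M compared to LPS. Parp12 had -0.31 ± 0.07 and Herc6, a ligase for ISG15, had 0.19 ± 0.10 in LPS+M compared to LPS. A second Herc6 probe set, at a mean of 7.34 against 7.35, had -0.10, so the direction for Herc6 depended on the probe set. No value is given for Isg15, the ubiquitin-like protein itself, whose only probe set carries a second symbol.

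**Figure D3:**
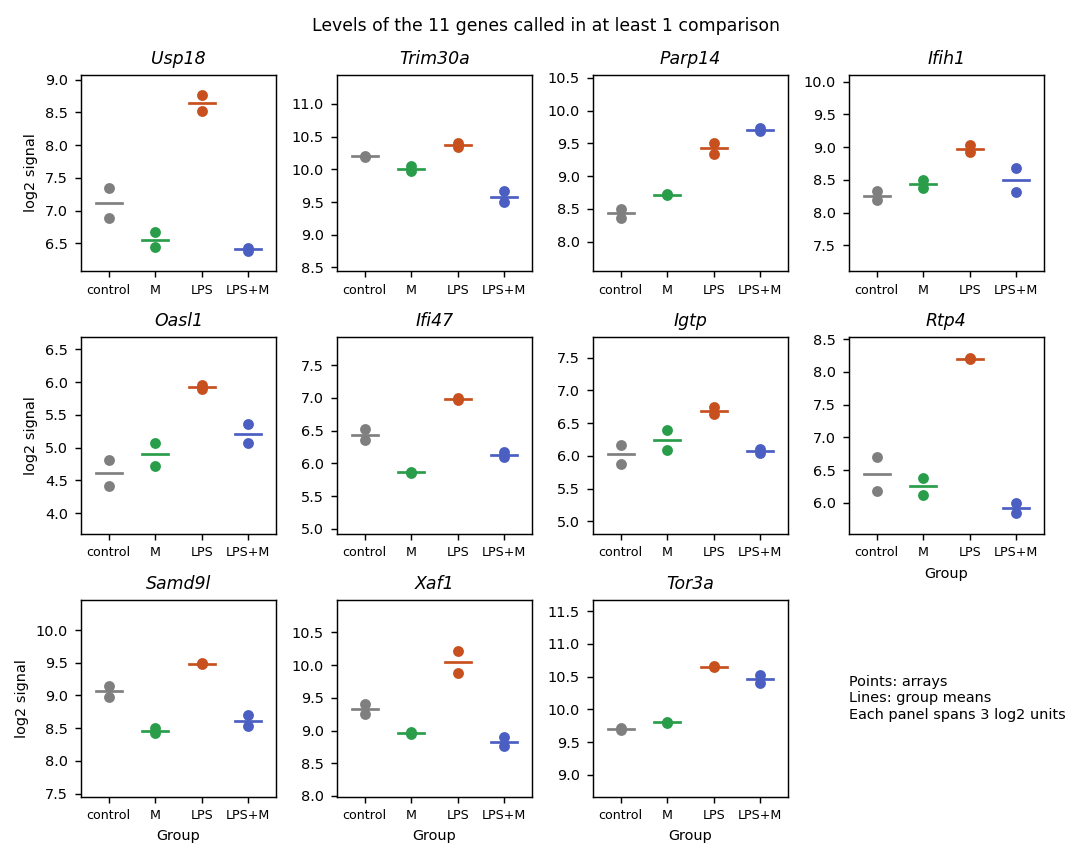
Log2 signal (y axis) by group (x axis) of the 11 genes called in at least 1 comparison, with points for the arrays, lines for the group means, and panels that each span 3 log2 units. Usp18 and Rtp4 stand highest in LPS and lowest in LPS+M, whereas Parp14 has its highest values in LPS+M.

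Among the RNA sensors and RNA-acting enzymes, 2 of 7 tested genes were upregulated with LPS, against 3.17% of all tested genes. In LPS+M compared to LPS, 1 was downregulated, against 2.49%. Oasl1, an OAS-like protein that restrains translation of Irf7, had 4.41 and 4.80 in control, 4.72 and 5.08 in M, 5.90 and 5.96 in LPS, and 5.36 and 5.07 in LPS+M. The LPS arrays lay above all others, and the LPS+M arrays lay above control and overlapped M. It rose by 1.32 ± 0.16 with LPS (adjusted p = 0.0012) and by 1.03 ± 0.16 in LPS relative to M (adjusted p = 0.00201), and it fell by 0.71 ± 0.16 in LPS+M compared to LPS (adjusted p = 0.0152). Its control mean of 4.61 lay under the filter of 4.84 and its LPS mean of 5.93 above it, so it passed through its higher groups. The fall in LPS+M compared to LPS was not called without the second LPS array (-0.68), without the second LPS+M array (-0.56) or in a fit without the filter (adjusted p = 0.0672). It rose by 0.61 ± 0.16 in LPS+M compared to control (adjusted p = 0.023), with 0.41 and 0.46, not called, without the first control and the first LPS+M array, and adjusted p = 0.0939 without the filter.

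Ifih1, which encodes the double-stranded RNA sensor MDA5, had 8.19 and 8.33 in control, 8.38 and 8.50 in M, 8.92 and 9.03 in LPS, and 8.31 and 8.68 in LPS+M. The LPS arrays lay above the others, and the LPS+M arrays spanned the M arrays. It rose by 0.71 ± 0.12 with LPS (adjusted p = 0.00481) and had -0.48 ± 0.12 in LPS+M compared to LPS (adjusted p = 0.021), under the fold minimum, with -0.66, called, without the second LPS+M array. Dhx58, the sensor LGP2, had -0.19 ± 0.11 with LPS, and Eif2ak2, the kinase PKR, had 0.03 ± 0.10. Oas2, an oligoadenylate synthetase, had 0.36 ± 0.09 with LPS (adjusted p = 0.0314), and Pnpt1, a mitochondrial RNA exonuclease, had 0.11 ± 0.07. Adar, which edits adenosine in double-stranded RNA, had 0.21 ± 0.07 in LPS+M compared to LPS on its main probe set and -0.41 on a second, so its probe sets disagreed in direction. Zbp1, Oas3, Oasl2 and Isg20 lay under the filter, at means of 4.62, 4.10, 3.52 and 2.87. Without the filter Oasl2 had 0.52 ± 0.10 with LPS, 0.63 ± 0.10 in LPS relative to M (adjusted p = 0.00924) and -0.52 ± 0.10 for LPS+M against LPS. Zbp1, a sensor of Z-form nucleic acid, had 0.28 ± 0.07 with LPS and -0.28 ± 0.07 in LPS+M compared to LPS in that fit. Oas3, with the printed core, had -0.19 ± 0.23 and -0.21 ± 0.23, and the RNase Isg20 had 0.34 ± 0.20 and 0.01 ± 0.20.

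The IRG GTPases load onto membranes around intracellular microbes. Of the 3 tested, 1 was upregulated with LPS, against 3.17% of all tested genes. In LPS+M compared to LPS, 2 were downregulated, against 2.49%. Ifi47 had 6.52 and 6.36 in control, 5.87 and 5.85 in M, 6.97 and 7.0 in LPS, and 6.17 and 6.10 in LPS+M. No group overlapped another, with M at the bottom and LPS at the top. It fell by 0.85 ± 0.07 in LPS+M compared to LPS (adjusted p = 0.000224) and rose by 1.13 ± 0.07 in LPS relative to M (adjusted p = 2.3e-05). With LPS it had 0.55 ± 0.07 (adjusted p = 0.00143) and in M relative to control -0.58 ± 0.07 (adjusted p = 0.00182), each just under the fold minimum, and quantile normalization took both past it, to 0.60 and -0.59. Without the first control array Ifi47 had 0.63 with LPS, called, and in M relative to control it had -0.66 without the second control array and -0.59 without the first M array, both called.

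Igtp, whose promoter holds both cores, had 5.88 and 6.16 in control, 6.09 and 6.39 in M, 6.64 and 6.74 in LPS, and 6.11 and 6.05 in LPS+M. The LPS arrays lay above all others, and the LPS+M arrays lay between the control arrays. It rose by 0.67 ± 0.12 with LPS (adjusted p = 0.00735), with 0.53, not called, without the first control array. In LPS+M compared to LPS it fell by 0.61 ± 0.12 (adjusted p = 0.00949), with -0.56 and -0.58, not called, without the second LPS and the second LPS+M array. Irgm1, a regulator of the other IRG proteins, had 0.13 ± 0.07 with LPS and -0.40 ± 0.07 in LPS+M compared to LPS (adjusted p = 0.00664), under the fold minimum. The antiviral GTPases Mx1 and Mx2 lay under the filter at means of 3.06 and 1.85, with -0.09 ± 0.04 and -0.0022 ± 0.02 in LPS+M compared to LPS in the fit without it.

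The immunoproteasome and peptide loading genes, which make and load peptides for MHC class I, held no called gene in any comparison. Psmb10, a catalytic subunit of the immunoproteasome, had 10.44 and 10.53 in control, 10.27 and 10.32 in M, 10.63 and 10.70 in LPS, and 10.42 and 10.35 in LPS+M. The LPS arrays lay above the rest by a small margin, with -0.28 ± 0.07 in LPS+M compared to LPS (limma adjusted p = 0.0164) and 0.37 ± 0.07 in LPS relative to M (adjusted p = 0.00331), neither of them 1.5-fold. The other catalytic subunits Psmb8 and Psmb9 had -0.03 ± 0.08 and -0.13 ± 0.08 with LPS. The peptide transporter gene Tap1 had 0.02 ± 0.09 and Tapbp, which encodes tapasin, had 0.17 ± 0.06. The 5 genes ranged from -0.28 to 0.02 in LPS+M compared to LPS. At an unadjusted p under 0.05, 2 of the 5 were higher with LPS (14.0% of all genes) and 1 was lower in LPS+M compared to LPS (16.7%).

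Of the 9 tested membrane, secreted, nuclear and other effectors, 3 were upregulated with LPS, against 3.17% of all tested genes. In LPS+M compared to LPS, 3 were downregulated, against 2.49%. Rtp4, an interferon-induced transporter protein for receptors, had 6.19 and 6.69 in control, 6.13 and 6.38 in M, 8.21 and 8.20 in LPS, and 5.85 and 5.99 in LPS+M. The LPS arrays stood far above the rest, and the LPS+M arrays lay below every other array. It rose by 1.76 ± 0.16 with LPS (adjusted p = 0.000232) and by 1.95 ± 0.16 in LPS relative to M (adjusted p = 8.36e-05), and it fell by 2.28 ± 0.16 in LPS+M compared to LPS (adjusted p = 0.000124). Rtp4 in LPS+M compared to control had -0.52 ± 0.16, not called, and -0.77, called, without the first control array. Its second probe set had a mean of 3.49, under the filter, and 0.03 with LPS, so averaging shrinks the changes. The mean of both gave 0.89 with LPS, 0.99 in LPS relative to M and -1.13 in LPS+M compared to LPS, all called.

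Xaf1, a pro-apoptotic partner of XIAP, had 9.25 and 9.40 in control, 8.98 and 8.95 in M, 10.22 and 9.88 in LPS, and 8.76 and 8.90 in LPS+M. The groups did not overlap, and LPS+M was the lowest. It rose by 0.73 ± 0.11 with LPS (adjusted p = 0.00359), with 0.56, not called, without the first LPS array, and by 1.08 ± 0.11 in LPS relative to M (adjusted p = 0.000298). It fell by 1.22 ± 0.11 in LPS+M compared to LPS (adjusted p = 0.000385). Its second probe set had a mean of 3.20, under the filter, and 0.04 with LPS, so averaging shrinks the changes and cannot test the first probe set. The mean of both gave 0.38 with LPS and 0.56 in LPS relative to M, neither called, and -0.63 in LPS+M compared to LPS, called. Samd9l, an interferon-induced protein that restrains cell growth, had 9.14 and 8.98 in control, 8.42 and 8.50 in M, 9.49 and 9.49 in LPS, and 8.70 and 8.54 in LPS+M. Both menthol groups lay below control, and LPS lay above it. It was the gene called in M relative to control, where it fell by 0.60 ± 0.08 (adjusted p = 0.00284), with -0.52 and -0.56, not called, without the first control and the first M array. Samd9l fell by 0.87 ± 0.08 in LPS+M compared to LPS (adjusted p = 0.000411) and rose by 1.02 ± 0.08 in LPS relative to M (adjusted p = 8.34e-05), and it had 0.42 ± 0.08 with LPS, under the fold minimum.

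Tor3a, an interferon-induced ATPase of the endoplasmic reticulum, had 9.68 and 9.71 in control, 9.79 and 9.81 in M, 10.64 and 10.66 in LPS, and 10.52 and 10.41 in LPS+M. All 4 arrays with LPS lay above all 4 without it. It rose by 0.95 ± 0.06 with LPS (adjusted p = 4.8e-05), by 0.85 ± 0.06 in LPS relative to M (adjusted p = 5.33e-05), by 0.66 ± 0.06 in LPS+M relative to M (adjusted p = 0.000461) and by 0.77 ± 0.06 in LPS+M compared to control (adjusted p = 9.42e-05). Its log2 fold change in LPS+M compared to LPS was -0.19 ± 0.06 on the main probe set and -0.46 and -0.71 on the others, and the mean of the 3 gave 0.58 in LPS+M compared to control, not called. Bst2, or tetherin, which holds budding virus at the cell surface and carries the printed core, had 0.33 ± 0.11 with LPS and -0.19 ± 0.11 in LPS+M compared to LPS. Ifitm3, which blocks viral fusion, and Lgals3bp, a secreted glycoprotein, had -0.06 ± 0.06 and -0.05 ± 0.09 with LPS. Sp100 and Daxx, proteins of nuclear bodies, had -0.24 ± 0.11 and 0.04 ± 0.07 in LPS+M compared to LPS. No value is given for Ifi44, which had no probe set of its own.

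**Figure D4:**
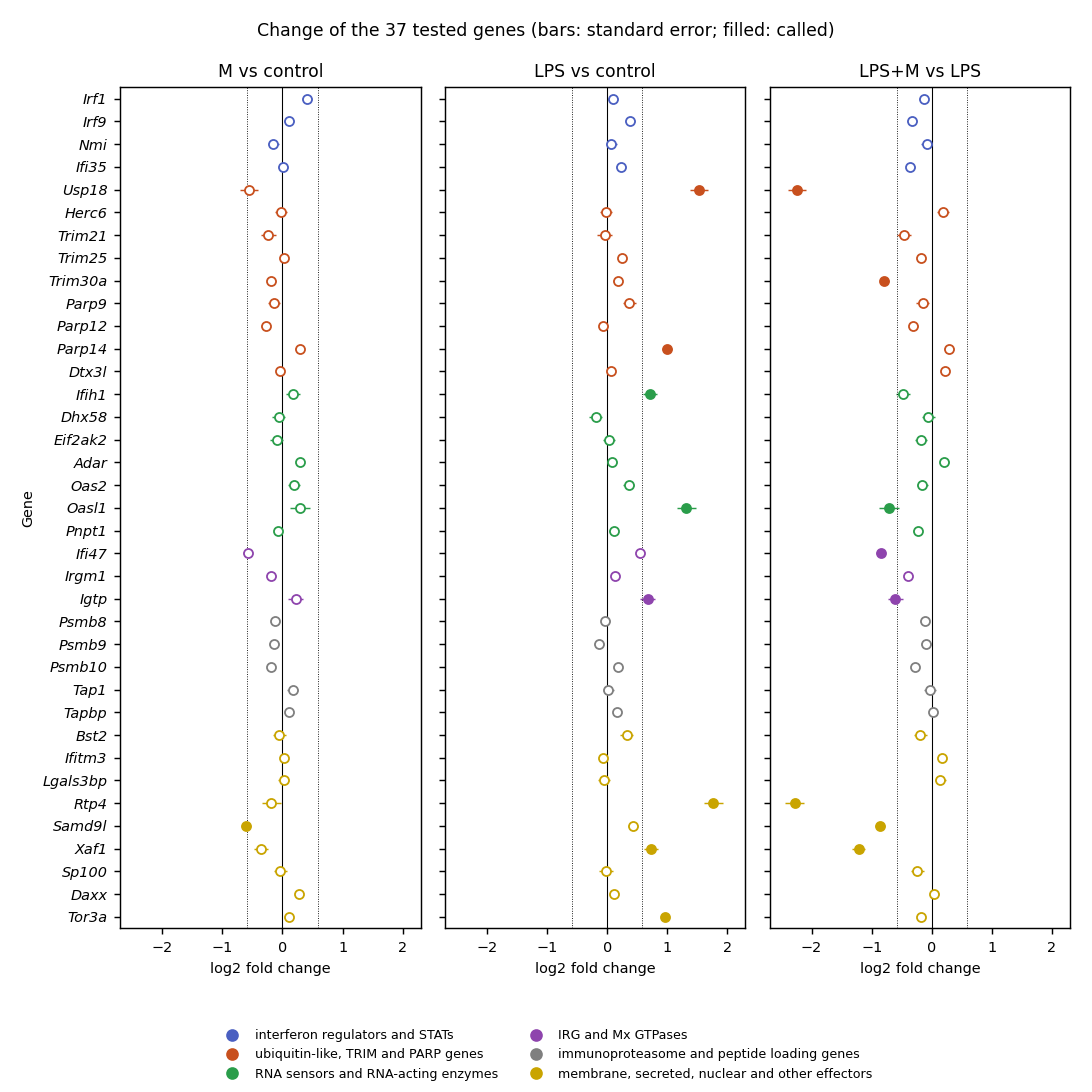
Log2 fold change (x axis) of each of the 37 tested genes (y axis) in M relative to control, LPS against control and LPS+M against LPS, with bars of 1 standard error, filled symbols for called genes, colours for the role groups and dotted lines at 1.5-fold. Called genes lie to the right with LPS (8 genes) and to the left in LPS+M compared to LPS (8 genes), and only Samd9l is called in M relative to control.

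The LPS response was also compared between cells with and without menthol, from LPS compared to control and LPS+M relative to M, which share no arrays. The test of the difference between these responses, the interaction of menthol and LPS, called 2 of 37 genes lower, against 0.202% of all tested genes, and 0 higher, against 0.0337%, with 15 lower (4.56% of all tested genes) and 1 higher (5.46%) at an unadjusted p under 0.05. Rtp4 had 1.76 ± 0.16 without menthol and -0.33 ± 0.16 with it, a difference of -2.09 ± 0.22 (adjusted p = 0.0182). Usp18 had 1.53 ± 0.15 and -0.15 ± 0.15, a difference of -1.68 ± 0.22 (adjusted p = 0.0419). Without the filter the adjusted p was 0.114 for Rtp4 and 0.15 for Usp18. Neither was called without the first M, the second M or the first LPS+M array, where the adjusted p was 0.0663, 0.123 and 0.114 for Rtp4 and 0.0904, 0.224 and 0.134 for Usp18. Usp18 was also not called without the first control array (0.072), the second LPS array (0.0927) or the second LPS+M array (0.0807). With the mean of both Rtp4 probe sets the difference was -1.04, called.

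Other genes had large differences that were not called. Oasl1 had 1.32 without and 0.32 with menthol, a difference of -1.0 ± 0.23 (adjusted p = 0.184). Xaf1 had 0.73 and -0.14 (-0.86 ± 0.16, adjusted p = 0.123), Igtp 0.67 and -0.16 (-0.83 ± 0.18, adjusted p = 0.152), and Ifih1 0.71 and 0.05 (-0.66 ± 0.17, adjusted p = 0.216). Trim30a had a difference of -0.60 ± 0.11 (adjusted p = 0.098) and was called with a trended and robust variance (adjusted p = 0.0322) and without the second LPS+M array (adjusted p = 0.0475). Xaf1 was called with the trended and robust variance too (adjusted p = 0.0336) and without the second LPS array (adjusted p = 0.0496). Parp14 had responses of 1.00 without and 1.00 with menthol, a difference of 0.0018 ± 0.11. For Ifi47 and Samd9l, whose M arrays lay below their control arrays, the difference was -0.27 ± 0.10 (adjusted p = 0.386) and -0.27 ± 0.12 (adjusted p = 0.501).

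**Figure D5:**
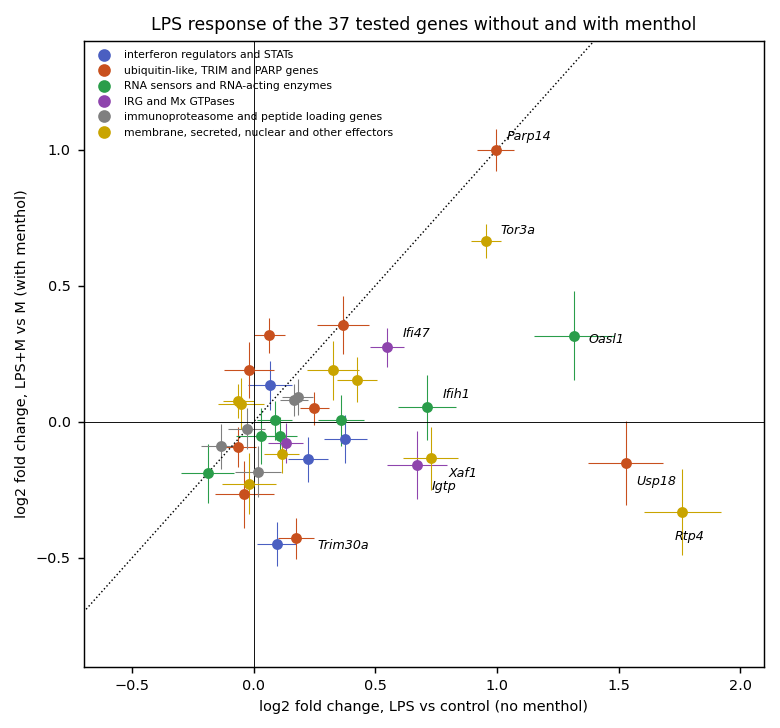
Log2 fold change of the 37 tested genes in LPS compared to control (x axis) against LPS+M relative to M (y axis), with bars of 1 standard error, colours for the role groups and a dotted line where both are equal. Parp14 lies on the line at 1.00, Tor3a lies just under it, and Rtp4 and Usp18 lie far to the right at -0.33 and -0.15 on the y axis.

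The genes that make interferon and carry its signal were measured on the same arrays. Of the 10 tested of 13 listed genes of interferon production, 1 rose (3.17% of all tested genes) and 0 fell (2.96%) with LPS, with 3 higher (14.0%) and 2 lower (20.7%) at an unadjusted p under 0.05. In LPS+M compared to LPS, 1 fell (2.49%) and 0 rose (4.22%), with 5 lower (16.7%) and 2 higher (24.1%) at an unadjusted p under 0.05. Their median log2 fold change in LPS+M compared to LPS was -0.16. Ikbke, which encodes the IRF3 kinase IKKε, had 8.43 and 8.30 in control, 8.0 and 8.18 in M, 10.51 and 10.55 in LPS, and 9.87 and 9.92 in LPS+M. The LPS+M arrays lay between LPS and the arrays without LPS. Ikbke rose by 2.16 ± 0.08 with LPS (adjusted p = 3.09e-06) and fell by 0.63 ± 0.08 in LPS+M compared to LPS (adjusted p = 0.00135). Tlr4, the LPS receptor, had -0.57 ± 0.09 with LPS, not called, and fell by 0.97 ± 0.09 in LPS+M relative to M and by 0.97 ± 0.09 in LPS+M compared to control. Ticam1, the adaptor TRIF, rose by 0.63 ± 0.15 and Sting1 fell by 0.70 ± 0.10 in LPS relative to M. Interferon beta itself, Ifnb1, lay far under the filter at 2.37 to 2.42 on all 8 arrays, as did Ifna4 at 2.02 to 2.06. These levels lay within the range of the markers of other cell types, so the arrays cannot show whether either gene changed.

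Of the 12 tested of 14 listed genes of the interferon receptor and JAK-STAT pathway, 3 rose (3.17% of all tested genes) and 0 fell (2.96%) with LPS, with 3 higher (14.0%) and 2 lower (20.7%) at an unadjusted p under 0.05. For LPS+M against LPS, 1 rose (4.22%) and 0 fell (2.49%), with 5 higher (24.1%) and 2 lower (16.7%) at an unadjusted p under 0.05. Jak2, a kinase of the interferon gamma receptor, had 8.26 and 8.37 in control, 9.33 and 9.38 in M, 9.86 and 9.85 in LPS, and 10.55 and 10.41 in LPS+M. It was higher with either agent and highest with both. It rose by 1.04 ± 0.07 in M relative to control (adjusted p = 0.000189), by 1.54 ± 0.07 with LPS and by 0.62 ± 0.07 in LPS+M compared to LPS (adjusted p = 0.000927). Tyk2, a kinase of the type I receptor, rose by 0.60 ± 0.08 with LPS, and the phosphatase gene Ptpn6 rose by 0.60 ± 0.06. The receptor genes Ifnar1 and Ifnar2 had 0.03 and -0.19 with LPS, and 0.06 and 0.20 in LPS+M compared to LPS, none called. Socs1 lay under the filter at a mean of 1.32, too low to show whether it changed.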

How the data were processed

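The authors deposited log2 signals of Affymetrix mouse arrays, which the submitters' processing notes credit to GCRMA (version 2.10.0, run in R version 2.6.1), a method that corrects background by probe GC content, quantile normalizes and summarises probe sets. Such log2 values shrink the fold changes of dim genes. Of 45101 probe sets, 34945 carried 1 symbol, and the brightest was taken for each gene. Genes averaging over 4.84, the average of the whole array, were fitted on all 8 arrays with limma 3.58.1 in R 4.3.3 (1 coefficient per group, 4 residual degrees of freedom). Genes under it were taken from a fit without the filter. The methods' filter and fold minimum were kept, and their t-test was an alternative. Exact permutation of 2 against 2 arrays cannot go below p = 0.333. The fit was tested on simulated data. Members and lists were chosen with earlier results of these data known. Every member is named, and up to 4 called members per role and comparison have full values. Pathway genes named are Tlr4, Ifnb1, Ifnar1, Ifnar2 and up to 4 called genes with the largest change in a comparison. Ifna4, Socs1 and the per-array values of further called genes were added after their values were seen. The number of arrays limits the precision. Other settings were other filters, probe set rules, normalizations and tests, a replicate block, and leaving out each array.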

Additional observations from a re-analysis of the deposited data

Results flagged for a closer look

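The LPS response of 2 genes differed between cells with and without menthol in limma's test of the difference itself (n = 2 arrays per group). For Rtp4 the response was lower by a log2 difference of -2.09 with menthol (adjusted p = 0.0182), and for Usp18 by -1.68 (adjusted p = 0.0419). Neither was called in the fit without the low-signal filter (adjusted p = 0.114 for Rtp4 and 0.15 for Usp18), or without the first M, the second M or the first LPS+M array. Usp18 was also not called without the first control, the second LPS or the second LPS+M array. Groups of 2 arrays are too small to look for single arrays that stand apart.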

How the results depend on the processing

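No called value among the 37 genes changed sign in any alternative, but the counts past the threshold changed. The methods' t-test at an unadjusted p called 4 genes in LPS compared to control (349 of all 8908) and 5 in LPS relative to M (640). It called 5 in LPS+M compared to LPS (288), 1 in LPS+M relative to M (217) and 2 in LPS+M compared to control (503). The main fit called 546, 1006, 598, 371 and 876 of all 8908 in these comparisons. After Benjamini-Hochberg adjustment, an alternative chosen after seeing the data, the t-test called 0 in each of the 6 comparisons, as it did over all 8908 genes. At either setting it called none of the 37 genes beyond those that limma called. With a fold of at least 2, the counts were 0 in M relative to control (85 of all 8908) and 3 in LPS compared to control (184). They were 3 in LPS+M compared to LPS (136), 0 in LPS+M relative to M (136) and 1 in LPS+M compared to control (268). Quantile normalization gave 3 in M relative to control (409 of all 8909). The mean of all probe sets gave 1 in LPS+M relative to M (260 of all 7855). For the interaction, the fit without the filter called 0 and the trended and robust variance called 4. Leaving out each array gave 1 to 2 genes in M relative to control (2 without the second control array), 7 to 8 in LPS compared to control, 8 to 11 in LPS relative to M, 6 to 8 in LPS+M compared to LPS, 2 to 2 in LPS+M relative to M, 3 to 6 in LPS+M compared to control (3 without the first LPS+M array) and 0 to 2 for the interaction (0 without either M array or the first LPS+M array, 1 without the first control array). Same-numbered arrays of different groups deviated together at correlations of -0.121 to 0.186, so the numbers were not taken to pair arrays. With the replicate block the counts were 1, 8, 8, 8, 2 and 5 in the 6 comparisons and 2 for the interaction, and no call changed. For single genes, 96 values lost and 20 gained a call over all alternatives, 4421 did neither, and the causes were not tested. Menthol dose and harvest times are not in the labels, and 2 arrays per group leave few degrees of freedom.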
